A study of Saccharomyces cerevisiae with 2 samples.

Results

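The 8 protein genes carried by the mitochondrial genome of budding yeast (Saccharomyces cerevisiae), COX1, COX2, COX3, COB, ATP6, ATP8, OLI1 and VAR1, are described here on 2 expression arrays. Members were found as the probe sets to which the platform annotation gives one of these symbols and no other. That gave 14 probe sets out of 9335, for 8 of the 5656 genes measured by a probe set of their own. All 8 lie on the mitochondrial chromosome in the RefSeq gene table. The single group is a yeast strain with the mutant histone H3 K4,36,79R, in which arginine replaces the lysines at positions 4, 36 and 79 of histone H3, at 18 hours after a move from galactose to glucose in selective medium. Galactose had allowed wild-type H3 to be made as well, and glucose shut it off. Replicates 1 and 2 were separate cultures with 1 array each, so the difference between them holds culture, labelling and array together. Wild-type cultures and other times were not analysed here. The values are therefore levels in the mutant, with no test and no change assigned to the histone.

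Respiration in yeast depends on a small genome inside the mitochondrion, which encodes the core subunits of cytochrome c oxidase and ATP synthase, cytochrome b and 1 ribosomal protein. A dedicated RNA polymerase made in the nucleus transcribes it, and most of its messages need nuclear-encoded activators to be translated. The mitochondrial chromosome carries no histones, and its messages, unlike nuclear ones, lack a poly(A) tail. The labels do not say how cDNA synthesis was primed. Growth on glucose is known to repress respiratory genes.

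All values are MAS5 signals in arbitrary units, given as replicate 1, replicate 2 and mean ± SD (n = 2). Signals of different probe sets are not on a common scale, so they show whether a message was seen and how well the arrays repeat, not which gene is more abundant. A probe set was called bright enough to read when it exceeded the background on both arrays and had a mean signal of at least 16. The background, the 95th percentile of 13 probe sets for foreign or antisense sequence, was 1.86 on replicate 1 and 1.69 on replicate 2. By this rule 5 of the 8 genes could be read, COX1, OLI1, ATP6, COX3 and COB, and 3 could not, COX2, ATP8 and VAR1. Of all 5656 genes, 80.9% could be read. Above background alone were 7 of the 8, all but VAR1, against 98.7% of all genes.

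**Figure D1:**
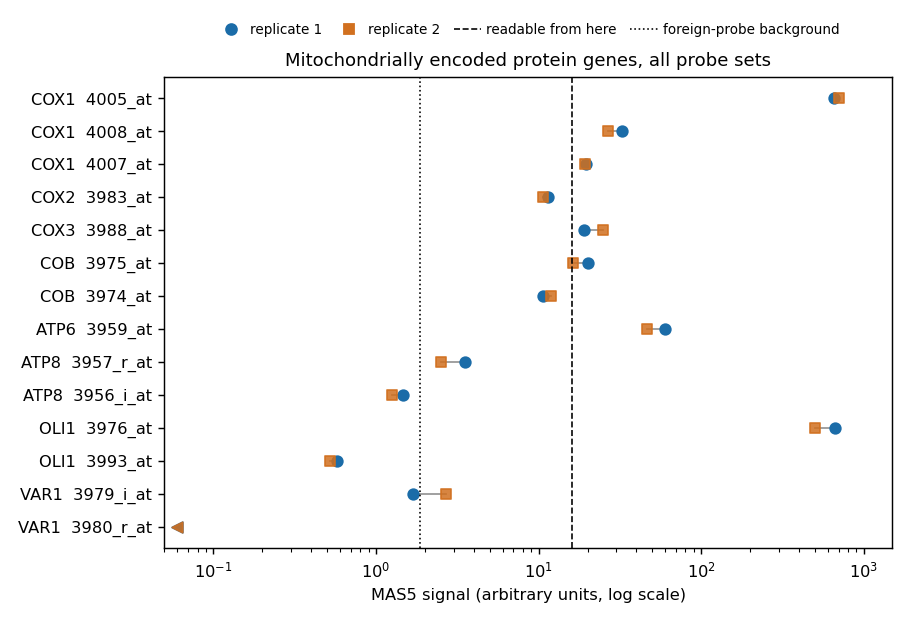
MAS5 signal (log scale, arbitrary units) of the 14 probe sets of the 8 genes on replicate 1 (circles) and replicate 2 (squares). The dashed line is the reading threshold of 16 and the dotted line the replicate 1 background of 1.86, which is the higher of both. A triangle at the left edge stands for a probe set listed at 0. COX1 and OLI1 each have 1 probe set above the others by a wide gap, at a mean of 680.3 and 585.8.

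COX1, COX2 and COX3 encode the catalytic core of cytochrome c oxidase, the last enzyme of the respiratory chain. COX1 carries the haem groups at which oxygen is reduced. Its brightest probe set gave 654.7 and 705.9 (680.3 ± 36.2), a log2 difference of replicate 2 minus replicate 1 of 0.11. The other COX1 probe sets gave 32.5 and 26.6 (29.5 ± 4.19) and 19.5 and 19.2 (19.3 ± 0.230). All 3 could be read, but their differences were 0.11, -0.29 and -0.02, so the gene had no settled direction between the cultures. COX2, whose protein takes electrons from cytochrome c, gave 11.4 and 10.6 (11.0 ± 0.564) on its only probe set. That was well over background and below the reading threshold on both arrays. COX3, a core subunit without a redox centre, gave 19.0 and 24.8 (21.9 ± 4.12), a log2 difference of 0.39. Its higher value was on replicate 2, opposite to most of the other readable members.

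COB encodes cytochrome b, the mitochondrially made subunit of the bc1 complex. Its brighter probe set gave 20.2 and 16.2 (18.2 ± 2.85), lower on replicate 2 by a log2 difference of -0.32. The dimmer one gave 10.6 and 11.9 (11.3 ± 0.876), a difference of 0.16. The probe sets of COB therefore pointed opposite ways, and the one that could be read lay close to the threshold on replicate 2.

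ATP6, ATP8 and OLI1 encode the membrane part of ATP synthase. OLI1, also called ATP9, makes the proteolipid of the rotating ring through which protons pass. Its brighter probe set gave 668.7 and 503.0 (585.8 ± 117.2), a log2 difference of -0.41, or 1.33-fold lower on replicate 2. The other OLI1 probe set gave 0.577 and 0.521, under background on both arrays. Probe sets given to this gene thus ran from the bright end of the array to background, and only the bright one was used. ATP6, the subunit that forms the proton path beside the ring, gave 59.8 and 46.3 (53.0 ± 9.58) on its only probe set, a log2 difference of -0.37. ATP8, a small subunit of the stator, gave 3.51 and 2.50 (3.01 ± 0.715) on the brighter of its probe sets and 1.47 and 1.25 (1.36 ± 0.154) on the other, which was under background. Its message could not be read from either.

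VAR1 encodes a protein of the small subunit of the mitochondrial ribosome, the only product of this genome among the 8 that is not part of the respiratory chain or ATP synthase. One of its probe sets gave 1.68 and 2.71 (2.19 ± 0.730), below background on replicate 1 and above it on replicate 2. The other was listed at 0 on both arrays. These probe sets do not show whether VAR1 was transcribed. Both ATP8 and VAR1 are covered only by probe sets with the suffix i or r, which the maker used where a full set of unique probes under its usual rules could not be chosen.

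Taken over the brightest probe set of each gene, 5 of the 8 were lower on replicate 2 and 3 were higher. Their median log2 difference was -0.21, beside 0.03 over all 5656 genes. Over 1.5-fold apart was 1 of the 8, VAR1, at background, and 0 of the 5 readable ones. Among all genes 2.17% differed by that much, and among the 4573 readable genes 0.722% did. At 1.25-fold, a limit chosen after the values were seen, 3 of the 5 readable members differed, OLI1 and ATP6 lower and COX3 higher on replicate 2, and COB, at 1.249-fold, fell just inside the limit. Of readable genes 5.62% differed by over 1.25-fold, 2.78% lower and 2.84% higher on replicate 2. Of the 5 readable members 3 were lower on replicate 2, beside 43.4% of readable genes. A single array per culture leaves all these differences without a test.

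The spread of replicates depends on brightness, so each member was also set beside genes of its own signal range. Among the 440 genes whose mean signal reached 256, the SD of the log2 difference was 0.13. Only 3 of them, OLI1 included, differed by as much as OLI1, and all 3 were lower on replicate 2. COX1 lay well within that range, since 162 of the 440 differed by at least as much. Among the 2740 genes from 16 to 64, where the SD was 0.20, 149 differed by at least as much as ATP6, 131 by at least as much as COX3 and 218 by at least as much as COB. Below 4, where ATP8 and VAR1 lie, the SD was 0.93 and 33.7% of genes were over 1.5-fold apart. Of the readable members OLI1 thus had the largest replicate difference for its brightness, matched by 0.682% of genes in its range. The shares were 4.78% for COX3, 5.44% for ATP6, 7.96% for COB and 36.8% for COX1. With the mean of log2 signals over its probe sets, 1 of them under background, OLI1 had a log2 difference of -0.28.

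**Figure D2:**
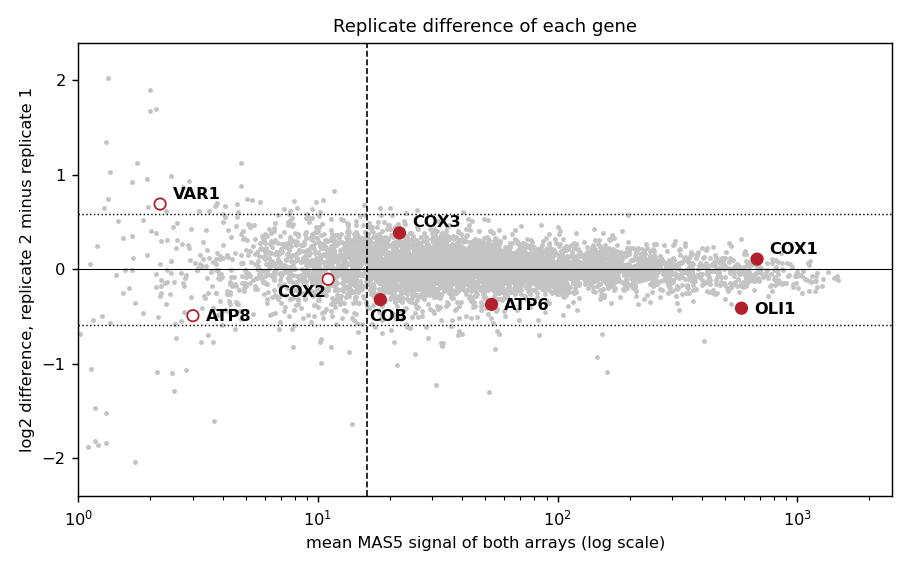
Log2 difference between the arrays (replicate 2 minus replicate 1) against mean MAS5 signal (log scale) for each gene's brightest probe set, all genes in grey and the 8 mitochondrially encoded genes in red, filled where they could be read. The dashed line is the threshold of 16, the dotted lines mark 1.5-fold, and 30 genes fall outside the axes. OLI1 sits below nearly all grey points of like brightness, 3 of 440 differing as much with OLI1 included, and COX1 among them.

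Nuclear genes with neighbouring probe set numbers were also lower on replicate 2 by their median, though by little. The members' probe sets have consecutive or nearby numbers, and the 64 readable probe sets of nuclear genes within 100 numbers of them had a median log2 difference of -0.08, with 42 lower on replicate 2. The 4796 readable probe sets of nuclear genes with other numbers had 0.03. Lower on replicate 2 were 65.6% of the neighbours and 43.3% of these others. Of the 64 neighbours, 2 were as low as ATP6 or lower, beside 106 of the 4796 others. Lower by over 1.25-fold were 2 of the 64 neighbours, or 3.1%, and 2.9% of the others. With only 2 such neighbours these shares cannot be compared closely. Less the neighbours' median, OLI1 had a log2 difference of -0.33 and the 8 genes a median of -0.13. The part of this offset in the members' differences was not tested, and the labels do not say what the numbers mean for position on the array.

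In this genome COX1, ATP8 and ATP6 are transcribed together from one promoter, as are OLI1 and VAR1, before the RNA is cut into separate messages. Genes of the first unit went different ways on their brightest probe sets, with 0.11 for COX1 and -0.37 for ATP6, and ATP8 could not be read. In the second unit OLI1 could be read and VAR1 could not. On the brightest probe sets there was thus no pair of readable genes within a unit with the same direction. The other readable COX1 probe sets, at -0.29 and -0.02, were lower on replicate 2, like ATP6. Whether COX1 and ATP6 moved together therefore depends on the COX1 probe set used.

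COX1 and COB are interrupted by introns, several of which contain reading frames for splicing and DNA-cutting proteins. Most of these frames run on from the exons before them, so some probe sets are annotated to the host gene together with the frames that share its early exons. There were 6 such shared probe sets, 3 for COX1 and 3 for COB, left out of the member values above, and all 6 could be read. The COX1 probe set shared with the AI1, AI2, AI3, AI4 and AI5α frames gave 22.4 and 27.9 (25.2 ± 3.92). The one shared with AI4 and AI5α gave 244.9 and 238.2 (241.5 ± 4.76). The one shared with AI5α alone gave 62.5 on both arrays (62.5 ± 0.00662). With these, COX1 was read by 6 of 6 probe sets, 2 higher and 4 lower on replicate 2 and 0 of them over 1.25-fold apart. The largest difference, on the probe set shared with AI1 to AI5α, was 1.248-fold, just inside that limit. For COB the shared probe sets gave 52.7 and 46.6 (49.7 ± 4.35) with BI2, BI3 and BI4, 17.8 and 15.1 (16.5 ± 1.92) with BI3 and BI4, and 32.6 and 32.9 (32.7 ± 0.268) with BI4. COB was thus read by 4 of 5 probe sets, and 0 of the 5 differed by over 1.25-fold. The largest difference, 1.249-fold, was on the brighter probe set of COB alone. Of all genes 80.9% could be read, and 5.62% of those passed 1.25-fold, a limit chosen after the values were seen.

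Probe sets for the intron frames alone were mostly dim. Of 10 such probe sets, for 9 frames, 2 could be read. AI1, whose protein is a reverse transcriptase-like maturase, gave 20.8 and 15.2 (18.0 ± 3.92), and AI5α gave 19.3 and 16.7 (18.0 ± 1.85). On replicate 2 AI1 was under the threshold. The other AI frames ran from 2.80 for AI5β to 7.11 for AI2. The BI frames had 0 of 4 probe sets that could be read, the brightest being one for BI4 at 9.65 and 9.28 (9.46 ± 0.262). Readable probe sets of these split genes thus numbered 10 of 11 where the host gene was named and 2 of 10 where only the intron frame was. Probe sets differ in affinity, so the counts describe detection and not amounts of spliced and intron RNA.

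**Figure D3:**
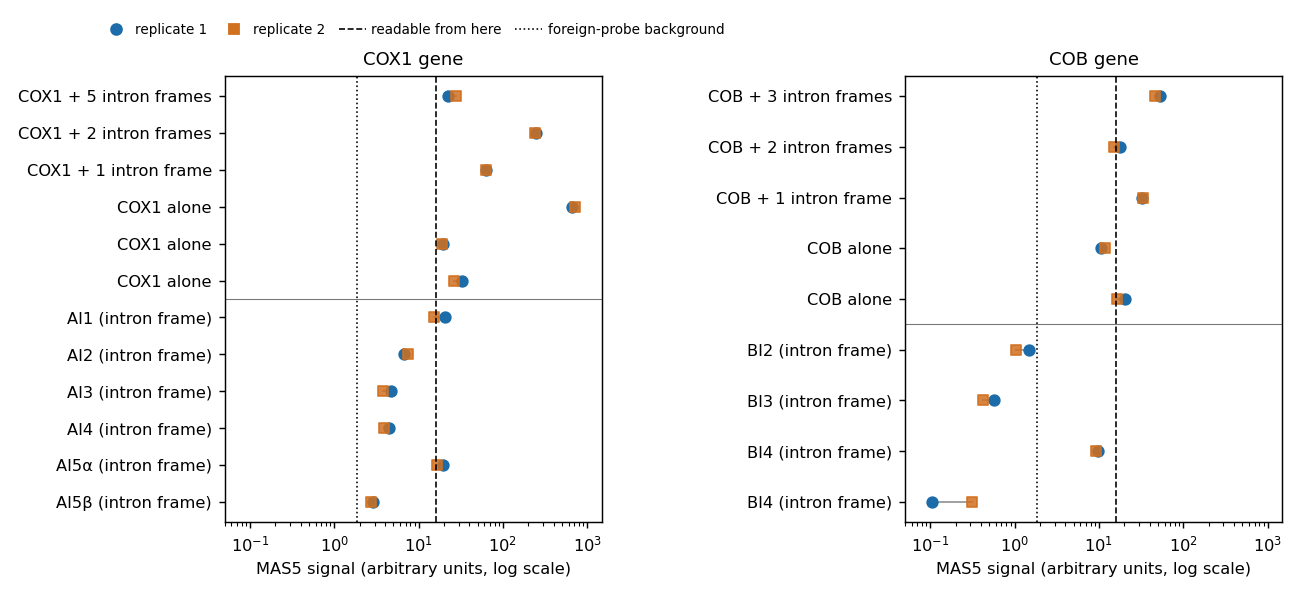
MAS5 signal (log scale, arbitrary units) of every probe set annotated to COX1 (left) or COB (right), alone or with intron reading frames, above the grey line, and to an intron frame alone below it. Circles are replicate 1 and squares replicate 2, with the threshold of 16 dashed and the background of 1.86 dotted. In both panels nearly all probe sets naming the host gene lie right of the threshold, and of the intron frames AI1 and AI5α reach it.

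Of the remaining mitochondrial-genome probe sets with 1 symbol, SCEI, the intron-encoded nuclease of the large ribosomal RNA gene, gave 8.60 and 11.3 (9.95 ± 1.92). Q0255, an open reading frame next to COX2, gave 17.1 and 15.4 (16.2 ± 1.21) on one probe set and at most 1.46 on the others. In all, 3 of 14 probe sets of these other mitochondrial genes could be read, AI1, AI5α and Q0255, but on replicate 2 alone only AI5α reached 16. The annotation gave 0 probe sets to each of 15S_RRNA, 21S_RRNA and RPM1, the ribosomal RNAs and the RNase P RNA, so they add nothing on whether the genome was intact. As a check of the sample, genes strongly expressed in yeast growing on glucose were bright, with ADH1 at 1347 ± 20.0, TDH3 at 1127 ± 68.9, ACT1 at 931.4 ± 25.7 and HXT3 at 784.5 ± 40.5. Not all of them are specific to glucose, ACT1 among these, so they do not by themselves show the carbon source.

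The same enzymes contain subunits made from nuclear genes, which all could be read. Of the 35 nuclear genes for subunits and regulators of complex III, complex IV and ATP synthase, 35 were bright enough. Of all genes 80.9% were. Of the 35, 25 were higher and 10 lower on replicate 2, where 43.4% of all readable genes were lower. The median log2 difference of the 35 was 0.06, and 0 were over 1.25-fold apart, beside 5.62% of all readable genes. All but COX5B had signals above 64. Of all genes from 64 to 256, 2.66% were that far apart, and of those from 256 up 1.59%. Their differences ran from -0.22 to 0.27. OLI1, ATP6 and COB lay below the lowest of them and COX3 above the highest. ATP6, COB and COX3 are dimmer than most of these nuclear genes. Over all lists of nuclear partners, 3 of the 40 genes with signals from 16 to 64 were over 1.25-fold apart. Among all genes that bright 7.77% were. The differences of the 40 ran from -0.84 to 0.35. ATP6 and COB lay inside that range and COX3, at 0.39, just above it. The 14 nuclear partner genes with signals of at least 256 had differences from -0.22 to 0.22, against -0.41 for OLI1. The difference between the gene groups was not tested.

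For cytochrome c oxidase the brightest of the 9 nuclear genes were COX12, with 495.4 ± 10.1, COX8, with 356.1 ± 13.5, and COX7, with 348.7 ± 28.6. COX5B, the isoform of subunit 5 that is made when oxygen is scarce, gave 31.1 ± 2.82. Among the 9 of complex III they were QCR7, with 502.1 ± 29.3, QCR8, with 400.3 ± 43.8, and QCR9, with 316.8 ± 5.12. Of the 17 for ATP synthase, regulators included, 14 were higher and 3 lower on replicate 2, the array on which OLI1 and ATP6 were lower. Of all readable genes 43.4% were lower on that array. ATP1 gave 345.1 and 386.5 (365.8 ± 29.3), ATP3 338.0 and 374.0 (356.0 ± 25.4) and ATP2 336.0 and 362.0 (349.0 ± 18.4). These genes encode the alpha, gamma and beta subunits of the catalytic head, and none passed 1.25-fold. Of all genes with signals from 256 up, 1.59% did.

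VAR1 works beside nuclear-encoded proteins of the small mitoribosomal subunit, of which 30 of 32 listed could be read, beside 80.9% of all genes. MRPS16 gave 127.8 ± 4.04, RSM18 gave 106.8 ± 1.21 and RSM7 gave 99.0 ± 6.30. The median log2 difference of the 30 was 0.02, with 13 lower and 17 higher on replicate 2. RSM10, with 70.5 and 39.3 (54.9 ± 22.0), was the 1 gene over 1.5-fold apart, 1.79-fold lower on replicate 2. The list includes KGD4, once taken for a ribosomal protein of this subunit and now known as a part of the 2-oxoglutarate dehydrogenase complex.

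**Figure D4:**
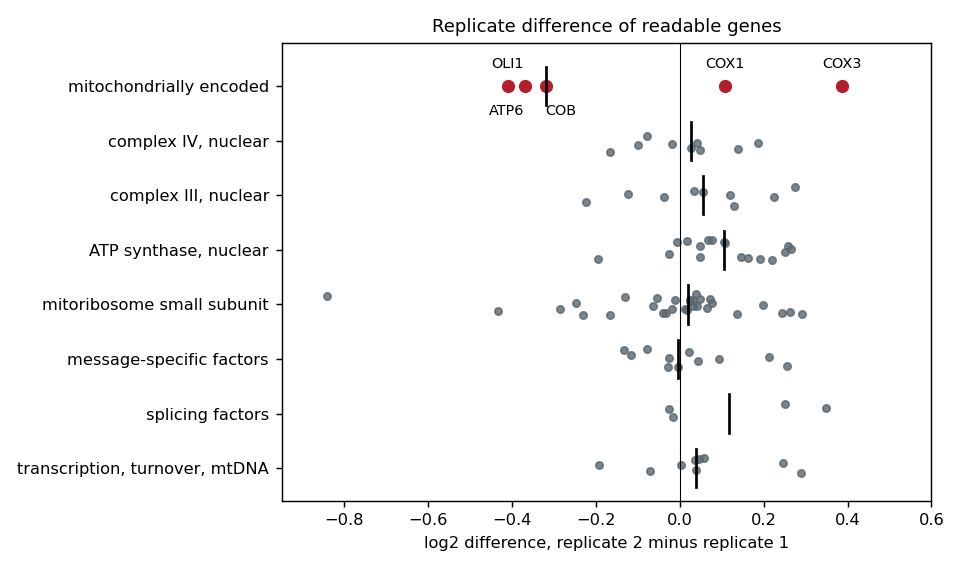
Log2 difference between the arrays (replicate 2 minus replicate 1) of genes bright enough to read, 1 point per gene and a bar at each list's median, for the mitochondrially encoded genes (red) and the lists of nuclear genes (grey). OLI1, ATP6 and COB lie at -0.41, -0.37 and -0.32, below every nuclear subunit of the same enzymes, and RSM10 is the lowest grey point at -0.84. ATP6 and COB are dimmer than most of these subunits, and the dimmer COB probe set, not shown, was at 0.16.

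Most mitochondrial messages need their own nuclear-encoded factors, and 11 of 19 such genes could be read, a lower share than the 80.9% of all genes. The readable factors had a median log2 difference of 0.00, with 0 over 1.25-fold apart, beside 5.62% of readable genes. For COX1, the activators MSS51 and PET309 gave 119.8 ± 1.58 and 13.0 ± 0.203. For COX2, PET111 gave 25.7 ± 0.260. For COX3, PET54 gave 73.0 ± 4.19, while PET494 and PET122 gave 13.6 ± 0.977 and 7.92 ± 0.595. Every member message except that of VAR1 thus had at least 1 factor that could be read, and the rest of the set shows the same mixture of bright and dim probe sets.

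For COB, the message-stabilising CBP1 gave 31.5 ± 0.0597, CBP3 and CBP6, which assist its translation, gave 54.6 ± 2.08 and 24.6 ± 0.524, and the activators CBS2 and CBS1 gave 15.2 ± 0.490 and 11.3 ± 2.28. For OLI1, AEP1 gave 33.1 ± 2.17, ATP25 gave 18.2 ± 2.29 and AEP2 gave 14.2 ± 0.864. On replicate 2, where OLI1 was lower, AEP1 had a log2 difference of -0.13 and ATP25 of 0.26. For ATP6 and ATP8, the ATP6 activator ATP22 gave 41.1 ± 4.26, and NCA3, NCA2 and AEP3, which act on their shared RNA, gave 64.3 ± 2.91, 25.7 ± 0.368 and 8.13 ± 1.19. SOV1, needed for VAR1, gave 6.59 ± 0.915 and could not be read, like VAR1 itself.

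The machinery that makes and handles all of these RNAs was mostly readable, as were 80.9% of all genes. Of 10 genes for transcription, RNA turnover and maintenance of the genome, 9 could be read, with a median log2 difference of 0.04. ABF2, which packages mitochondrial DNA, gave 209.2 ± 3.58, RIM1, its single-strand binding protein, gave 134.4 ± 12.6 and MHR1, a recombination protein, gave 78.3 ± 9.39. RPO41, the mitochondrial RNA polymerase, gave 46.1 and 56.3 (51.2 ± 7.21), higher on replicate 2, and its partner MTF1 gave 26.7 and 27.4 (27.0 ± 0.513). Of the 7 genes for splicing of COX1, COB and ribosomal RNA introns, 4 could be read, a lower share than over all genes. MSS116, an RNA helicase, gave 71.2 ± 8.75, MRS1 gave 33.9 ± 0.255 and NAM2, the leucyl-tRNA synthetase that also aids splicing, gave 21.9 ± 3.71, with a log2 difference of 0.35.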

How the data were processed

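Total RNA of 2 replicate cultures was hybridised as biotin-labelled cRNA, 1 array each. The deposited values are linear intensity values, 1 MAS5 signal per probe set, per the submitters' processing notes. The MAS5 version, the scaling used and the genome build were not named there. The median signal was 25.5 on replicate 1 and 25.7 on replicate 2, and precision is limited by the number of arrays. The platform annotation, which can be old, gave 1 symbol to 6504 probe sets, several to 328 and none to 2503. The brightest probe set stood for a gene, and differences are of log2 signals as deposited. Mean and SD, counts and medians were computed with pandas 2.3.3 and numpy 2.4.6, and loess with statsmodels 0.14.6. No p-value was computed, because 1 group allows no comparison. The fold count was tested on simulated data. The members and lists were chosen with earlier results of these data known. The text names every member probe set, the readable single-symbol probe sets of other mitochondrial genes, the 3 brightest genes of each nuclear list, genes over 1.5-fold apart with a mean signal of at least 16, and all message-specific factors. Other named genes (COX5B, KGD4, RPO41, MTF1, SCEI and dim intron frames) were chosen after their values were seen. Genes of like pattern were not sought, since 2 arrays of 1 group give none. Alternatives changed the scaling, the threshold, the background, the treatment of several probe sets and the array used.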

Additional observations from a re-analysis of the deposited data

How the results depend on the processing

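The 1.25-fold limit, the fold count over readable members only and the neighbours' median were chosen after seeing the data. The count of readable members, 5, was 3 at a threshold of 32, and 4 to 6 under the other alternatives, with 5 on either array alone. The median signal of the 8 members, 20.1, was 16.1 with the mean of log2 signals over a gene's probe sets, and 19.6 to 20.5 with either array alone. Members over 1.5-fold apart, 1, became 0 with an offset of 16, with a 2-fold limit and with readable members only, and 5 at 1.25-fold. The 5 include ATP8 and VAR1, with signals below 4, where 54.1% of all genes differed by over 1.25-fold. Among readable genes 5.62% did. The members' median log2 difference stayed below 0, from -0.32 to -0.06. Over all lists of nuclear partners together, 89 readable genes, the median log2 difference was 0.03 and stayed between 0.02 and 0.04. This set is wider than the 35 subunits and regulators, whose median was 0.06. The difference of COX1 reversed to -0.069 with the mean of its probe sets, because its dimmer probe sets were lower on replicate 2. Other mitochondrial probe sets that could be read, 3, were 5 at a threshold of 8, 0 at 32, and 1 to 3 on either array alone, 1 without replicate 1. No paired analysis was possible because the arrays form a single group. Low signals, below 16, limit what can be read, which covers COX2, ATP8 and VAR1.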
